A study of Mus musculus with 2 samples.

Results

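Chromatin bound by PPARγ was mapped in mouse TH2 cells, and 8 genes that lay nearest to at least 4 of the mapped peaks are described here: Rbpj, Cytip, Skap1, Lcp1, Arap2, Capza2, Fbxw7 and Slc44a1. They were chosen by that number of peaks from the 26 protein-coding genes that reached it, among 21851 protein-coding genes on the chromosomes with peaks (0.119%). A peak was given to the gene with the nearest transcription start site (TSS) if its centre lay within 100 kb. The TSSs were those of coding transcripts in the basic set of the annotation. For Rbpj, Arap2, Fbxw7 and Slc44a1 this set includes coding transcripts with support level 5, so it is not limited to those with level 1. The 8 genes held 35 of the 2537 peaks, and 18 other genes with at least 4 peaks held 78. Having at least 4 peaks was a condition for the list, so the number of peaks is no finding about these genes. It does not set them apart from the other 18. The list was labelled as leukocyte genes, so the roles of its genes are no finding either. The data were 1 ChIP-seq library and 1 input library, and no value below has a replicate. The ChIP library was made with an antibody to the TY1 tag from C57BL/6J naive CD4 T cells that were differentiated to TH2 cells, given a retrovirus with TY1-tagged Pparg on days 1 and 2, and collected for ChIP on day 4. The input library was made from the same cells without antibody, so the cells of both libraries carried the introduced receptor. The peaks thus describe a receptor expressed from a retrovirus, and the peak list cannot check the TH2 identity of the cells.

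PPARγ is a nuclear receptor that binds DNA together with RXR, usually at a DR1 element, a direct repeat of the hexamer AGGTCA with a single base between the copies. In T cells it is known for its part in TH2 responses. Of the 8 listed genes, 7 act in T cell adhesion, the actin cytoskeleton or Notch signalling, and Slc44a1 acts in choline supply. These roles describe the list and not genes with many peaks in general. RBPJ is the DNA-binding factor of the Notch pathway: it holds corepressors at its sites until the cleaved Notch receptor joins it and recruits a Mastermind coactivator. FBXW7 is the substrate receptor of an SCF ubiquitin ligase that marks cleaved Notch, MYC, JUN and cyclin E for degradation. CYTIP binds cytohesin-1 and restrains adhesion through the integrin LFA-1, whereas SKAP1 is an adaptor that, with its partner ADAP, couples the T cell receptor to activation of LFA-1. LCP1, or L-plastin, bundles actin filaments in leukocytes, and CAPZA2 is an alpha subunit of the protein that caps their fast-growing ends. ARAP2 is a phosphoinositide-dependent GTPase-activating protein for ARF6 that acts at focal adhesions, and SLC44A1 is a choline transporter. Cytip, Skap1 and Lcp1 are characteristic of blood cells, while Rbpj, Capza2, Fbxw7 and Slc44a1 are expressed in many tissues; no expression was measured here, so a leukocyte label for the set could not be checked.

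The sequences that carry the DR1 matches are shown first, because this is the element the receptor is known to recognise. All sequence is from the GRCm38.p6 reference (mm10), each peak is 173 bases long, and peaks are numbered from 5′ to 3′ along the gene. Capitals mark a DR1 match, defined as the 13 bases of the repeat with at most 2 mismatches in its 12 fixed bases, on either strand; a match on the other strand is printed as its reverse complement. Peak 4 of Cytip lies in a 3′ untranslated region, and only its site is given.
Rbpj peak 1, chr5:53490292-53490464, plus strand: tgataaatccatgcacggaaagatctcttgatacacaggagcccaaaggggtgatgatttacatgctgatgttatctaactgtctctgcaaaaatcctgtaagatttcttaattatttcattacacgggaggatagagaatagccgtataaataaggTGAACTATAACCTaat
Rbpj peak 3, chr5:53532396-53532568, plus strand: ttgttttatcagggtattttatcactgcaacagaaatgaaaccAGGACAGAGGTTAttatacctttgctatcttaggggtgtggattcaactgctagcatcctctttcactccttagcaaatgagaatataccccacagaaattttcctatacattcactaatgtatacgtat
Cytip peak 4 site, chr2:58130194-58130219, minus strand: ctgagaaagcAGAGCATAGGTCAccg
These were the DR1 matches of the 8 genes, 3 in 35 peaks (8.57%, exact 95% interval 1.80 to 23.1%, counting error only), against 502 of all 2537 peaks (19.8%). The interval included the share of all peaks. Each of the 3 matches had 2 mismatches: AGGTTATAGTTCA on the minus strand in Rbpj peak 1, AGGACAGAGGTTA on the plus strand in Rbpj peak 3 and AGAGCATAGGTCA on the minus strand in Cytip peak 4. They lay 77, 37 and 32 bp from their peak centres. None of the 35 peaks held a match with 1 mismatch or none, against 6.42% of all peaks.

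The second set of sequences shows the matches to TGANTCA, which capitals mark here. These letters were searched for AP-1 factors such as JUN and FOS, with any base allowed at the centre.
Rbpj peak 2, chr5:53490910-53491082, plus strand: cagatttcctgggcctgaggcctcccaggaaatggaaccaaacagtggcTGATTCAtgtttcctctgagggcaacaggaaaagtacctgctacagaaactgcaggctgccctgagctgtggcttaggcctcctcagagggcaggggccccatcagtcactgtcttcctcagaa
Cytip peak 5, chr2:58124749-58124921, plus strand: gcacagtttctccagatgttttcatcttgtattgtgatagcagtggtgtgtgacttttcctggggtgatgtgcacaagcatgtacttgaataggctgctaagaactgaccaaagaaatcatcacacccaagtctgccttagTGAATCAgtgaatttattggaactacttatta
Skap1 peak 3, chr11:96458939-96459111, plus strand: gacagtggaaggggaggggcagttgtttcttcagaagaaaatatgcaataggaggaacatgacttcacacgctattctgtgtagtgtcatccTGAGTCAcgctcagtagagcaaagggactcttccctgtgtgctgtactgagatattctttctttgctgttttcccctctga
Fbxw7 peak 1, chr3:84812216-84812388, plus strand: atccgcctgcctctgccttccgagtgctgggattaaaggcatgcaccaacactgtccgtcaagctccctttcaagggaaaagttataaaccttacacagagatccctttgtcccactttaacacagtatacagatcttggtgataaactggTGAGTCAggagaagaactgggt
AP-1 letters were found in 4 of the 35 peaks (11.4%, exact 95% interval 3.20 to 26.7%), against 595 of all peaks (23.5%), which the interval included. The share in the 78 peaks of the other 18 genes with at least 4 peaks, 30.8%, was above the interval. In windows of 400 bp, AP-1 letters were in 5 of 35 (14.3%, exact 95% interval 4.81 to 30.3%), against 34.3% of all peaks, also above the interval. In windows of 100 bp they were in 2 of 35 (5.71%, exact 95% interval 0.70 to 19.2%), against 12.5% of all peaks, which that interval included. These intervals treat peaks of the same gene as independent, although they share a locus, and no difference was tested. Skap1 peak 3 and Fbxw7 peak 1 carried TGAGTCA, the form with G at its centre, which lay 9 bp from the centre of the Skap1 peak and 68 bp from that of the Fbxw7 peak. The match in Rbpj peak 2 was TGATTCA and that in Cytip peak 5 was TGAATCA. Counting only matches with C or G at the centre left 2 of 35 peaks (5.71%, exact 95% interval 0.70 to 19.2%), against 17.9% of all peaks, which the interval included.

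The 8 genes differed in where their peaks lay, as the map of their peaks by position shows. Peaks in introns of the gene's own basic coding transcripts made up 18 of the 35 (51.4%, exact 95% interval 34.0 to 68.6%), against 924 of all 2124 assigned peaks (43.5%). Of the 18, 12 lay in intron 1 of the gene's longest coding transcript (66.7%, exact 95% interval 41.0 to 86.7%), against 437 of 918 such peaks in all assigned genes (47.6%). Lcp1 held 4 of these 12 and Fbxw7 3, so peaks that share an intron are counted as independent. The other 17 of the 35 peaks were upstream of the first coding TSS, except Cytip peaks 4 and 5 near the end of that gene. No peak of the 8 genes lay in a promoter, taken as 1000 bp before to 100 bp after a TSS of the basic set. The same held for the 78 peaks of the other 18 genes with at least 4 peaks, against 204 of all peaks (8.04%). The absence is therefore not particular to the 8 genes. A count of 0 in 35 allows a share of up to 10.003% by the exact interval. With the TSSs of all annotated transcripts, 1 of the 35 peaks, Lcp1 peak 1, lay in a promoter (2.86%). This compares with 1 of the 78 (1.28%) and 256 of all peaks (10.1%).

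**Figure D1:**
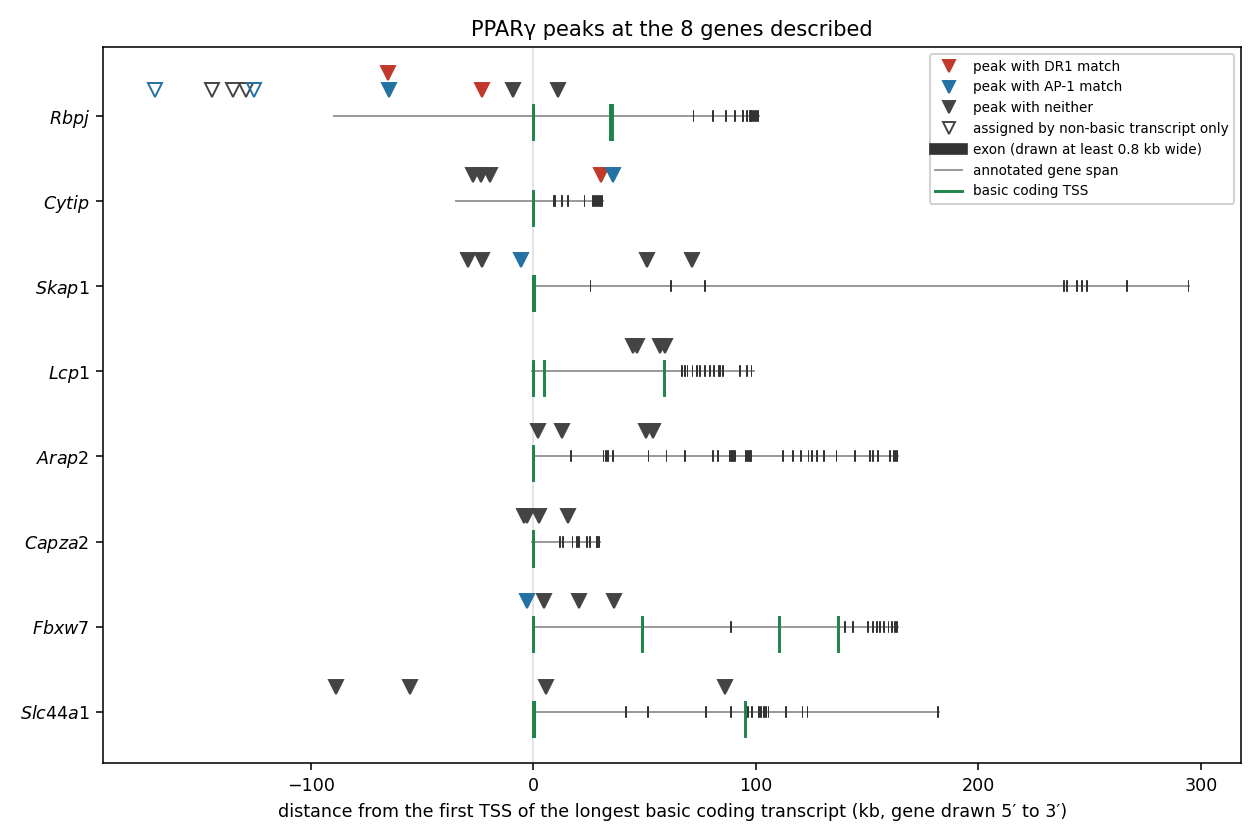
Peaks of the 8 genes by distance from the first coding TSS in kb, upstream to the left, with 1 row per gene. Triangles are peaks, red with a DR1 match, blue with an AP-1 match and dark grey with neither, open triangles are peaks given to Rbpj only by its transcript outside the basic set, grey lines are annotated gene spans, black boxes exons of the longest coding transcript and green lines coding TSSs. Lcp1 peaks all sit 44.6 to 59.3 kb into the gene, whereas Rbpj peaks sit mostly upstream.

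Rbpj (chr5:53466152-53657362, plus strand) held 5 peaks, 4 of them upstream of its first coding TSS at 65.5, 64.8, 23.4 and 9.10 kb. Peak 5 lay 10.8 kb downstream of that TSS, in intron 1 of the longest coding transcript, Rbpj-202, an intron of 71.5 kb. Rbpj-202 has support level 5, whereas the other basic coding transcripts of Rbpj have level 1. Those start 34.4 to 35.1 kb farther downstream, so all 5 peaks lie upstream of them. Peaks 1 to 4 lay within the annotated span of Rbpj only because of Rbpj-210. This transcript is outside the basic set, also has support level 5 and starts at 53466152. Peak 4 also overlapped a noncoding exon of the antisense gene Gm40304. The nearest TSS of any other coding gene, that of Cckar, was 141 to 217 kb from each of the 5 peaks. The sequence of peak 5, which lies in an intron of Rbpj-202, is shown because it held the letters that RBPJ binds, GTGGGAA. These were on the minus strand 28 bp from the centre, and a STAT match, TTCNNNGAA, was 15 bp from the centre. Capitals mark both.
Rbpj peak 5, chr5:53566583-53566755, plus strand: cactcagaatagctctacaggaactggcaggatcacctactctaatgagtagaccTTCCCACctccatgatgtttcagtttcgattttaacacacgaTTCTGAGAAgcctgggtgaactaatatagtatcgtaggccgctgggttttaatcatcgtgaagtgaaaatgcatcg
Taking all annotated transcripts in place of the basic set, a choice made after seeing the data, gave Rbpj 10 peaks. The 5 added ones lay 35.8 to 80.4 kb upstream of Rbpj-210 and 119 to 144 kb from the nearest basic coding TSS, which left them without a gene under the 100 kb limit. The 10 peaks spanned 181 kb with a median gap of 14.3 kb, and 2 held DR1 and 3 AP-1 letters.

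Fbxw7 (chr3:84815268-84979198, plus strand) held 1 peak 2.97 kb upstream of its first TSS and 3 inside intron 1 of Fbxw7-204, a 48.2 kb intron, at 4.90, 20.3 and 36.3 kb. Only the upstream peak held AP-1 letters, as shown above, and none held a DR1 match. All 4 also lay in introns of Gm37240, annotated as a coding gene on the opposite strand whose span covers Fbxw7, and the closest TSS of another coding gene, that of Tmem154, was at least 146 kb from each. The peaks were 7.87, 15.4 and 16.03 kb apart. Peaks 3 and 4 each held the NFAT core TGGAAA, 8 and 46 bp from the centre.

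Cytip (chr2:58129137-58195532, minus strand) held 5 peaks, and none lay in an intron of its coding transcript. Peaks 1, 2 and 3 lay 27.3, 23.5 and 19.5 kb upstream of the coding TSS, within introns of noncoding Cytip transcripts that start farther upstream. Peak 4 lay in the 3′ untranslated region of Cytip-201, 30.3 kb downstream of the TSS, and peak 5 lay 35.7 kb downstream, beyond the end of the gene. The upstream 3 were 3.78 and 4.03 kb apart, a gap of 49.7 kb followed, and the last 2 were 5.40 kb apart. Peak 2 is shown because its RBPJ letters GTGGGAA run directly into an AGGTCA hexamer on the same strand, 72 and 78 bp from the centre; capitals mark the joined pair.
Cytip peak 2, chr2:58183918-58184090, plus strand: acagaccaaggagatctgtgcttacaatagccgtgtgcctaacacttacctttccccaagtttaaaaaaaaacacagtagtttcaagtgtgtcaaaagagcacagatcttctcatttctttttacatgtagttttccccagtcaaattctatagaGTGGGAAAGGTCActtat
The coding TSS of Cytip was farther from each of the 5 peaks than the TSS of a noncoding gene, Gm13546 at 10.2 to 18.1 kb from the upstream 3 and a processed pseudogene, Gm13534, at 16.8 to 22.2 kb from the others. The noncoding Cytip transcripts started closer still to peaks 1 and 2, at 7.73 and 11.5 kb.

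Skap1 (chr11:96464593-96759130, plus strand) held 5 peaks: 2 between genes at 29.5 and 23.01 kb upstream, 1 at 5.57 kb upstream in an intron of the noncoding gene Gm11529, and 2 inside the gene. Those inside lay 51.1 kb downstream in intron 2 and 71.4 kb downstream in intron 3. The upstream intronic peak held the AP-1 letters described above, and peak 5 held the GATA core AGATAA 2 bp from its centre. Skap1 had no DR1 match. Its peaks were 6.47, 17.4, 56.6 and 20.4 kb apart, and the nearest other coding TSS was that of Hoxb1, 69.4 kb from the closest of them.

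Lcp1 (chr14:75131101-75230842, plus strand) had all 4 peaks in a single intron, intron 1 of the longest coding transcript, which is 66.4 kb long. They lay 44.6, 46.6, 56.8 and 59.3 kb from the first coding TSS, so that they spanned 14.7 kb, with gaps of 1.92, 10.2 and 2.50 kb. An alternative coding TSS inside the gene lay 0.527 kb from peak 4 and 1.97 kb from peak 3, and all 4 were nearest to this TSS among those of the basic set. Peak 1 also lay 6 bp from the start of Lcp1-211, a noncoding transcript outside that set. The first TSS of Lcp1 is 0.673 kb from that of Lrrc63. With the TSS farthest 5′ as the single start of each gene, Lcp1 kept 2 peaks. Peak 4, the closest to a coding TSS of the basic set among the 35, is shown as an example with none of the 9 motifs searched, so it has no capitals.
Lcp1 peak 4, chr14:75190770-75190942, plus strand: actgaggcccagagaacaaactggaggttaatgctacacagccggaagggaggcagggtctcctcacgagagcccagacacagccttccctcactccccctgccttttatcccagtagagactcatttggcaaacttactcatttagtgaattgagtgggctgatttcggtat

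Capza2 (chr6:17636234-17666972, plus strand) was the shortest of the 8 genes, at 30.7 kb, and its 4 peaks spanned 19.6 kb around the TSS. Of these, 2 lay between genes 4.32 and 2.80 kb upstream, 1 lay 2.33 kb downstream in intron 1 and 1 lay 15.3 kb downstream in intron 3. The gaps were 1.52, 5.13 and 13.0 kb. Peak 4 held an AGGTCA hexamer 40 bp and the ETS core AGGAAG 13 bp from its centre, and no Capza2 peak held DR1 or AP-1 letters.

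Arap2 (chr5:62602445-62766159, minus strand) had all 4 peaks inside the gene, 2.03 and 12.8 kb downstream of the TSS in intron 1, 50.5 kb in intron 6 and 53.9 kb in intron 7. Peak 3 lay 0.818 kb from an exon. The only basic coding transcript of Arap2, to which these distances and introns refer, has support level 5. The first pair was 10.7 kb apart, a gap of 37.7 kb separated it from the other pair, and that pair was 3.37 kb apart. No Arap2 peak held DR1 or AP-1 letters, and peak 4 held an AGGTCA hexamer 70 bp from its centre.

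Slc44a1 (chr4:53440413-53622478, plus strand) had the widest spread of the 8 genes, 175 kb. Its peaks lay 88.9 and 55.6 kb upstream between genes, 5.64 kb downstream in intron 1 and 86.0 kb downstream in intron 4, with gaps of 33.4, 61.2 and 80.4 kb. Both upstream peaks were closer to the TSS of a noncoding gene than to that of Slc44a1, the pseudogene Gm12495 at 43.2 kb and the lincRNA Gm12496 at 19.2 kb. Peak 4 was nearest to an alternative coding TSS inside the gene, 9.17 kb away. That TSS belongs to a transcript with support level 5. Peak 3 held an AGGTCA hexamer 83 bp from its centre, and no peak held DR1 or AP-1 letters. The coding gene on its left, Abca1, which exports cholesterol, had 3 peaks of its own.

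The spacing of neighbouring peaks had a median close to that in other genes, but its longest gaps were shorter. The 27 gaps within the 8 genes ran between 0.618 and 80.4 kb with a median of 13.0 kb (95% interval of the median from order statistics 5.13 to 20.4 kb). The 60 gaps of the 18 other genes with at least 4 peaks had a median of 18.9 kb, and the 418 gaps of the other genes with at least 2 peaks had a median of 16.7 kb, both within that interval. Gaps within 5 kb were 7 of 27 (25.9%) in the 8 genes, against 25% and 27.8% in those sets. Gaps over 50 kb were 3 of 27, against 17 of 60 and 80 of 418. The longest gap was 80.4 kb, against 326 and 516 kb. This difference was not tested. Per gene, the median gap was 2.50 kb in Lcp1, 4.71 kb in Cytip, 5.13 kb in Capza2, 10.7 kb in Arap2, 15.4 kb in Fbxw7, 17.1 kb in Rbpj, 18.9 kb in Skap1 and 61.2 kb in Slc44a1. The smallest gap, between Rbpj peaks 1 and 2, can be read against the caller, which kept peaks at least 344 bp apart. Gaps of 1 gene share that gene and its boundaries, so they are not independent of each other.

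**Figure D2:**
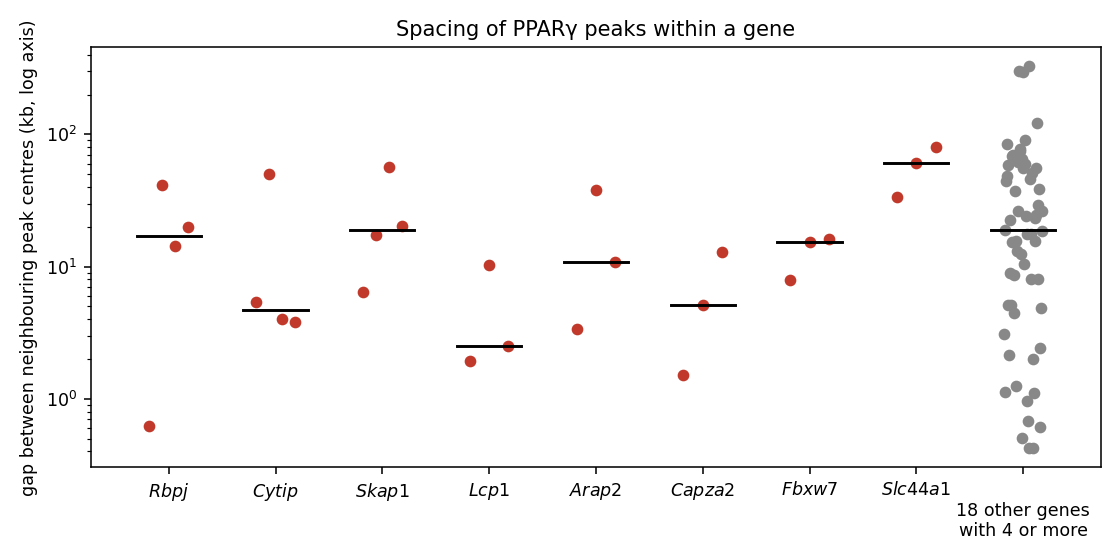
Distance between the centres of neighbouring peaks in kb (log axis), with 1 point per gap and a line at each median, for each of the 8 genes and for the 18 other genes with at least 4 peaks together. Slc44a1 gaps sit between 33.4 and 80.4 kb and Lcp1 gaps between 1.92 and 10.2 kb, all within the range of 0.423 to 326 kb in the other genes.

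At least 1 peak was assigned to 1679 of the 21851 genes (7.68%) and at least 4 to 26 (0.119%). Of the 8 genes, Lcp1, Arap2, Capza2, Fbxw7 and Slc44a1 were just inside the limit with 4 peaks, and 52 genes were just outside it with 3. Rbpj, Cytip and Skap1 had 5, as did Bach2, Hif1a, Plcl2 and Tnfsf4, and Inpp4b had 6, the highest number of any gene.

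**Figure D3:**
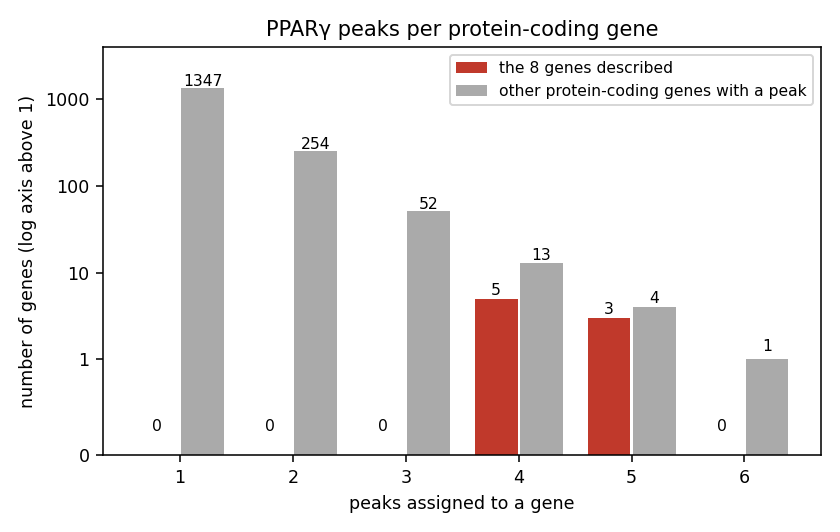
Number of protein-coding genes (log axis above 1) by the number of peaks assigned to them, with the 8 genes in red and the other genes in grey. The 8 genes sit at 4 peaks (5 genes) and 5 peaks (3 genes), beside 52 genes with 3 peaks and 1 with 6.

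How many peaks a gene can collect depends on the stretch of genome nearest to it. This stretch, cut at 100 kb, had a median of 143 kb for the 8 genes, 185 kb for the other 18 genes with at least 4 peaks, 97.1 kb for genes with a peak and 47.4 kb for all protein-coding genes. Of the genes whose stretch was at least 85.1 kb, the shortest among the 8, 931 of 6937 (13.4%) had a peak, and 25 of the 26 genes with at least 4 peaks were among them. Per 100 kb of stretch, Lcp1 had 4.70 peaks, Capza2 3.95, Cytip 3.68, Skap1 3.34, Arap2 3.23, Rbpj 2.59, Slc44a1 1.65 and Fbxw7 1.28, against a median of 1.33 in all genes with a peak. Fbxw7 was thus just below that median and Lcp1 highest of the 8, although each was chosen with 4 peaks. The number of peaks behind the choice is part of this rate, and 1347 of the 1679 genes with a peak had 1. A rate above the median of all genes with a peak therefore follows partly from the choice. The other 18 genes with at least 4 peaks had a median of 2.38 peaks per 100 kb and a highest value of 5.86.

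**Figure D4:**
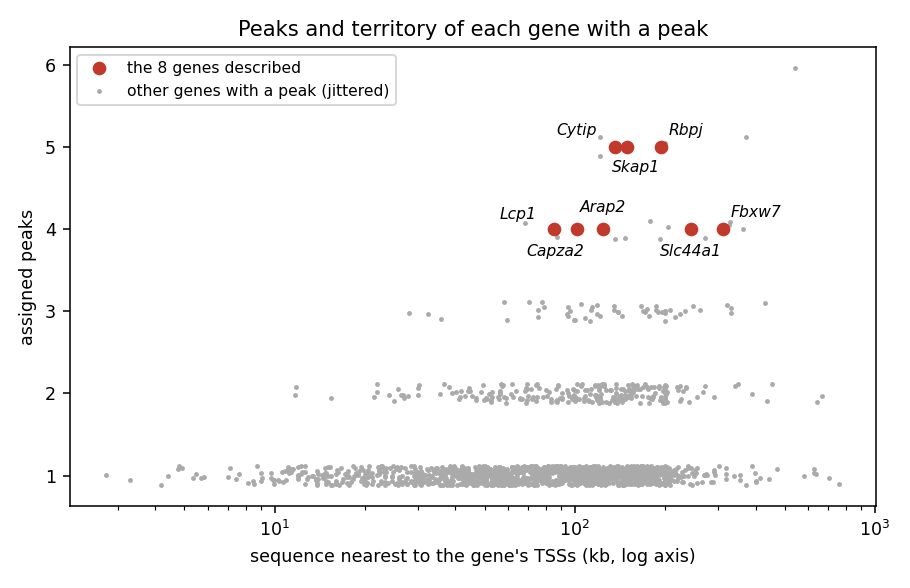
Peaks assigned to a gene against the stretch of genome nearest to its TSS, in kb, on a log axis, with 1 point per gene with a peak (grey points jittered vertically) and the 8 genes in red and named. Lcp1 reached 4 peaks in 85.1 kb and Fbxw7 in 311 kb.

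By class of position, with gene spans as annotated and promoters and exons of the basic set, 27 of the 35 peaks were intronic (77.1%, exact 95% interval 59.9 to 89.6%), against 62.8% of the peaks of the other 18 genes and 52.4% of all peaks. With all annotated transcripts the count was 26 (74.3%), against 49.3% of all peaks. The share of 77.1% and that of 51.4% over basic coding introns differ through the 4 upstream peaks of Rbpj, the 3 of Cytip, the 1 of Skap1 and the 1 of Fbxw7, which lie in introns of transcripts outside the basic coding set or, for Skap1 and Fbxw7, of an overlapping gene. Between genes lay 7 of 35 (20%), against 36.0% of all peaks. All peaks include 413 that lay beyond 100 kb of a coding TSS, which the assignment rule keeps out of the 35. The 8 genes were also long, with a median annotated length of 164 kb, against 37.6 kb for all genes with a peak. The shares were matched for neither. The peaks had a median distance to the nearest coding TSS of 15.3 kb, against 16.4 kb for all assigned peaks. Within 1 kb lay 1 of 35, against 0 of 78 in the other 18 genes and 9.37% of all assigned peaks.

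Of the other sequence elements, the AGGTCA hexamer alone, which DR1 matches can contain, was in 7 of 35 peaks (20%), against 27.8% of all peaks. GATA letters AGATAA were in 2 (5.71%), against 16.2%, and STAT letters TTCNNNGAA were in 4 (11.4%), against 9.89%. The RUNX core TGTGGT was in 4 (11.4%), against 18.6%, the ETS core AGGAAG in 8 (22.9%), against 25.2%, and the NFAT core TGGAAA in 7 (20%), against 19.3%. GTGGGAA, the RBPJ letters, were in 3 (8.57%), against 4.14%, within the 200 bp windows of Rbpj peak 5, Cytip peak 2 and Arap2 peak 1. For these 7 elements the exact 95% interval of the 8 genes' share included the share of all peaks. The ETS, NFAT, STAT and RBPJ letters can overlap one another, and a match is a run of letters, not evidence of binding.

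Peaks with neither DR1 nor AP-1 letters were 28 of 35 (80.0%, exact 95% interval 63.1 to 91.6%), against 53.8% of the 78 peaks of the other 18 genes and 61.1% of all peaks. This comparison was made after the separate shares were known, with peaks that share a gene, and has no test. In windows shifted by 1000 bp to either side, DR1 letters were in 7.14% for the 35 peaks, against 3.39% for all peaks, and AP-1 letters in 10%, against 6.09%. For the 8 genes the shares at the peaks and beside them were thus 8.57 and 7.14% for DR1 and 11.4 and 10% for AP-1. Lcp1, Arap2, Capza2 and Slc44a1 had neither element in any of their 16 peaks. Median GC content was 41.0% in the 35 peaks, against 43.4% in all peaks. Of 35 peak centres, 2 lay in masked repeats (5.71%, exact 95% interval 0.70 to 19.2%), against 16.2%, which the interval included. The median share of masked bases was 12.1% in the 35 peaks, against 11.6% in all peaks.

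**Figure D5:**
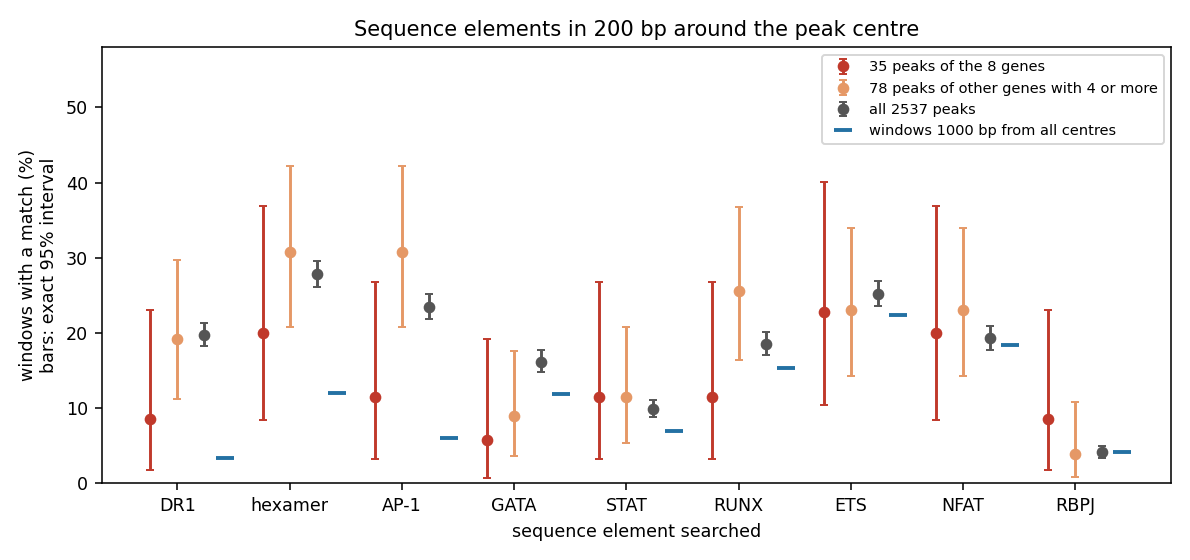
Share of peaks in percent that hold each sequence element, for the 8 genes, the other genes with at least 4 peaks and all peaks, with exact 95% intervals as bars; blue dashes are windows 1000 bp from all peak centres, and hexamer is AGGTCA alone. For DR1 the shares were 8.57, 19.2 and 19.8%, and for AP-1 11.4, 30.8 and 23.5%.

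The pathway partners of the 8 genes were counted from 5 lists chosen for their known roles. Among 38 Notch pathway genes, 5 had a peak (13.2%), against 7.68% of all protein-coding genes, and without Rbpj and Fbxw7 3 of 36 did (8.33%). These were Maml2, a Mastermind coactivator, with 4 peaks, Psen2, a catalytic subunit of gamma-secretase, with a promoter peak 0.737 kb from the TSS that held a DR1 match, and Numb, which restrains Notch, with 1 intronic peak. Among 18 genes of SCF ligases and FBXW7 substrates, 5 had a peak (27.8%, against the same 7.68%), and without Fbxw7 4 of 17 did (23.5%). Of these substrates, Mtor had 2 peaks with the nearer 0.401 kb from its TSS, Myc had 2 with the nearer at 1.98 kb, Jun had 2 and Gata3, the TH2 lineage factor, had 1.

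Of 35 T cell adhesion genes, 14 had a peak (40.0%), against 7.68% of all protein-coding genes. Without Cytip and Skap1, 12 of 33 did (36.4%). The guanine nucleotide exchange factor Rapgef1 had 3 peaks, and Cyth1, which encodes the cytohesin that CYTIP binds, had 2, the nearer at 11.8 kb. Rap1b, a small GTPase that activates LFA-1, the Ras exchange factor Rasgrp1 and the adhesion receptor Cd2 had 2 peaks each, and Cyth3 had 1 at 4.65 kb. Fyb, which encodes ADAP, had 1 intronic peak at 11.3 kb; it is named for its tie to SKAP1, after its value was seen. Of 52 actin cytoskeleton genes, 16 had a peak (30.8%, against 7.68%), and without Lcp1, Capza2 and Arap2 13 of 49 did (26.5%). Evl, Elmo1 and Dock8 had 2 peaks each and the other 10 had 1, such as Gsn, which encodes the actin-severing protein gelsolin, at 8.08 kb, Rhoh and Wipf1. Of 13 genes of choline transport and phosphatidylcholine synthesis, 2 had a peak (15.4%, against 7.68%), and without Slc44a1 1 of 12 did (8.33%), which was Pemt. The lists were chosen with results of these data known and hold genes active in T cells, so their shares are descriptions beside the background and not evidence of a preference. The background of 7.68% was not matched for the stretch of genome nearest to each gene. Of all genes with a stretch of at least 85.1 kb, 13.4% had a peak.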

How the data were processed

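One ChIP library and 1 input library of mouse TH2 cells were available, and the series text states that the experiment was repeated with a single replicate used. The submitters' processing notes, like the series text, name Bowtie2 for alignment to mm10 and HOMER for peak calling against the input, and the series text restricts the tags to unique positions. Their versions are not given in the sources used here. From 10229438 tags, per the file headers, calling gave 3239 putative peaks, of which the input filter removed 682 and the local filter 20, with a threshold of 8 tags, a minimum distance of 344 bp and a 4-fold excess over the surrounding 10000 bp. The local filter and minimum distance can remove or merge close peaks. The deposited score is 1 in every row, with 6 columns in the rows against 15 names in the header, so no peak has a strength and depth per peak is unknown.

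Peak centres were assigned to the nearest TSS of a coding transcript of the GENCODE vM21 basic set within 100 kb. The plan spoke of all annotated transcripts; the basic set was taken because it gives the gene counts behind the choice of members, and the comprehensive set is an added alternative. Both strands of the 200 bp around each centre were scanned for motifs. Shares have exact (Clopper-Pearson) 95% intervals, which treat peaks of the same gene as independent. With 1 library and members chosen by the readout, no tests were made. The members and lists were chosen with earlier results of these data known. Named are all 8 members, the coding genes beside them, up to 6 other genes of each list by number of peaks and then distance, and up to 5 other genes with the most peaks. All 156 list symbols matched the annotation. Assignment and motif counting were tested on simulated data. Python 3.11.15, numpy 2.4.6, scipy 1.17.1, pysam 0.24.0, matplotlib 3.10.9 and samtools 1.23.1 were used.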

Additional observations from a re-analysis of the deposited data

How the results depend on the processing

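The number of the 8 genes that keep at least 4 peaks depended on the assignment rule. It was 4 within 50 kb, 2 within 20 kb, 4 when a peak had to lie in the gene body, 3 when basic TSSs of all annotated genes competed, and 1 in the first 1268 rows of the list. Over all protein-coding genes, the number with at least 4 peaks fell from 26 to 12, 4, 19, 8 and 1 in the same settings. Peaks of the 8 genes numbered 19 within 20 kb, 20 with all TSSs and 20 in those rows, from 35. All assigned peaks numbered 1174, 1241 and 1081 in these settings, from 2124. With all TSSs Cytip kept 0 peaks and Rbpj 1. Merging peaks within 2 kb left 32 peaks and 6 genes. The intronic share was 51.4% over basic coding introns, an alternative added after seeing the data, and the DR1 share was 0% with up to 1 mismatch. Genes with a peak numbered 10 in the actin list within 20 kb, and by gene body 9 in the adhesion, 2 in the SCF and 1 in the choline list. All protein-coding genes with a peak numbered 1035 within 20 kb and 1102 by gene body, from 1679. Another 30 main results were within 1.5 times or the interval of the value reported, and no direction reversed. No paired analysis was possible because there is 1 ChIP library and 1 input library. Without replicates or peak strengths, neither the error of a peak call nor the peaks missed at this depth can be given.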
